A study of Mus musculus with 12 samples.

Results

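The insulin-like growth factor (IGF) axis of the mouse thymus is described here through 9 genes. They are the binding proteins Igfbp5, Igfbp4, Igfbp3 and Igfbp7, the ligand Igf1, the receptors Igf1r and Igf2r, and the adaptors Irs1 and Irs2. Every array probe set whose annotation gave 1 of these symbols and no other was taken, which made 26 probe sets out of 45037, or 9 genes out of 18193 with a symbol. Igfbp5 was chosen by its measured male minus female difference in these same arrays, so its male minus female values are given as a description with no test. The 8 other genes were chosen as its partners in the pathway.

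Thymus RNA was hybridised to 12 arrays. Each of the 4 groups had 3 biological replicates, and the labels do not say whether a replicate was 1 mouse or a pool. The groups were XY-sry males, XXsry males, XY- females and XX females, all killed at 7 to 8 weeks of age, and 10 µg of total RNA was labelled for each array. In the mouse model that carries these names, Y- is a Y chromosome that lacks the testis-determining gene Sry, and sry is an autosomal transgene that supplies it. The design separates the effect of Sry and male gonads (males minus females) from the effect of the sex chromosome complement (XY- carriers minus XX carriers). Carrying sry and having male gonads go together in all 12 samples and cannot be told apart. The strain is not given in the labels used here, and whole thymus was taken, so values are averages over all its cell types.

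IGF-I is a secreted growth factor that signals through the tyrosine kinase receptor encoded by Igf1r, and the adaptors Irs1 and Irs2 carry the signal to phosphoinositide 3-kinase and Akt. The receptor encoded by Igf2r takes up IGF-II for breakdown in lysosomes and does not signal through a kinase of its own. The binding proteins hold IGFs outside the cell and set how much ligand reaches the receptors, and Igfbp5 also binds the extracellular matrix. In the thymus, IGF-I is known to support thymic epithelium and the growth of the thymocyte pool.

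The promoter of Igfbp5 is shown because the results turn on this gene, and that of Igfbp4 because it is the binding protein with the most probe sets, none of which passed the male against female test. Each run is the 250 bases before the annotated gene start, 5′ to 3′ on the strand of the gene, from RefSeq on GRCm38.p6. The Igfbp5 window is chr1:72874866-72875115 on the minus strand, and the Igfbp4 window is chr11:99040994-99041243 on the plus strand. Capitals mark TATTTAA, an A and T rich stretch that begins 51 bases before the Igfbp5 start, and TATAAA, the TATA box letters, which begin 28 bases before the Igfbp4 start.

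Igfbp5: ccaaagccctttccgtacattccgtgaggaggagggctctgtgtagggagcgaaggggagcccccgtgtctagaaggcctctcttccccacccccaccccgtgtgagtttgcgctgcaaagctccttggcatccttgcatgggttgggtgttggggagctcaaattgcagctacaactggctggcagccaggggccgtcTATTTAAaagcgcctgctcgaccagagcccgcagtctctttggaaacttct

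Igfbp4: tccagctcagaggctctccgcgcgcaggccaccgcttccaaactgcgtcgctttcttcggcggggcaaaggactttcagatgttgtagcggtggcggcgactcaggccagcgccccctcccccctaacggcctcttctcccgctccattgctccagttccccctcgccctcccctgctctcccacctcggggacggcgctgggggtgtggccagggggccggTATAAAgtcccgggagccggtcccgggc

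TATTTAA was picked after the Igfbp5 sequence had been read, and on either strand it occurs in 4.18% of 32851 promoter windows of the same length. TATAAA occurs in 12.4% of them, was found once in the Igfbp4 window and was not found in the Igfbp5 window. The E box letters CANNTG matched once in each window, 77 bases before the start in Igfbp5 and 174 bases before it in Igfbp4, and occur in 66.2% of windows. AGAACA, the core hexamer of androgen and glucocorticoid receptor sites, was in neither window and occurs in 16.1% of all. The AP-1 letters TGACTCA (4.46% of windows) and the GC box letters GGGCGG (32.7%) were in neither window as well. A match or its absence describes these letters in this window and nothing more.

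All values below are log2 intensities after the authors' normalization, and differences are on the same log2 scale. They do not compare amounts between genes, since probe sets differ in how brightly they bind. Of the 26 probe sets, 18 in 6 genes had a mean log2 intensity of at least 5 over the 12 arrays and were tested. The other 8 probe sets, which include both of Igfbp3 and the only ones of Irs1 and Irs2, were dimmer and are given from a fit without that minimum. The labels held: Xist read 3.41 to 4.14 in XY-sry, 11.59 to 11.63 in XXsry, 3.50 to 4.19 in XY- and 11.10 to 11.55 in XX thymi, while Sry read 6.84 to 7.20 in XY-sry, 6.74 to 6.95 in XXsry, 5.23 to 5.65 in XY- and 5.33 to 5.39 in XX thymi. Array medians lay between 4.02 and 4.10, and no array duplicated another. XY- replicate 2 stood apart, with a highest correlation to another array of 0.988 and an actin 3′ to 5′ gap of 0.51 (log2 of the 3′ probe set less that of the 5′ one, a readout of RNA quality), against 0.66 to 0.83 on the other 11 arrays.

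Igfbp5, a high-affinity binding protein, was read by 2 probe sets, and both were higher in male than in female thymi on either sex chromosome complement. Probe set 1452114_s_at read 9.32, 8.91 and 9.34 in XY-sry thymi and 9.44, 9.22 and 9.24 in XXsry thymi, against 7.64, 7.39 and 7.92 in XY- thymi and 7.43, 7.38 and 7.49 in XX thymi. All 6 males lay above all 6 females, and the lowest male stood 0.99 above the highest female. Group means were 9.19 ± 0.24 in XY-sry, 9.30 ± 0.12 in XXsry, 7.65 ± 0.27 in XY- and 7.43 ± 0.06 in XX thymi (SD, n = 3 each). The male minus female difference averaged 1.70 ± 0.096 (SE), a 3.26-fold higher level. It was 1.54 between XY-sry and XY- thymi (2.91-fold) and 1.87 between XXsry and XX thymi (3.65-fold). Ordered from highest to lowest by signed difference, this probe set ranked 1 among 17925 in all 3 of these comparisons, which share their arrays. Probe sets lower in males do not compete in that ranking, whatever their size. Because whole thymus was measured, more cells that make Igfbp5 and more Igfbp5 RNA per cell cannot be told apart.

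The second Igfbp5 probe set, 1422313_a_at, read 6.71, 6.56 and 6.78 in XY-sry thymi and 6.99, 6.85 and 6.76 in XXsry thymi, against 6.13, 6.26 and 6.09 in XY- thymi and 6.16, 6.18 and 5.93 in XX thymi. Again no male overlapped a female, with a gap of 0.30. The difference was smaller, at 0.65 on average (1.57-fold), 0.52 between XY-sry and XY- and 0.78 between XXsry and XX thymi. By the same signed ranking the probe set stood at 21, 84 and 20. Over the 12 arrays the 2 probe sets correlated at r = 0.94, which reflects mainly the male and female groups, since the deviations from group means correlated at 0.11. Both probe sets gave the same order of group means, XXsry, XY-sry, XY- and XX from high to low. In that order the XXsry and XY-sry arrays overlapped, and so did the XY- and XX arrays.

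**Figure D1:**
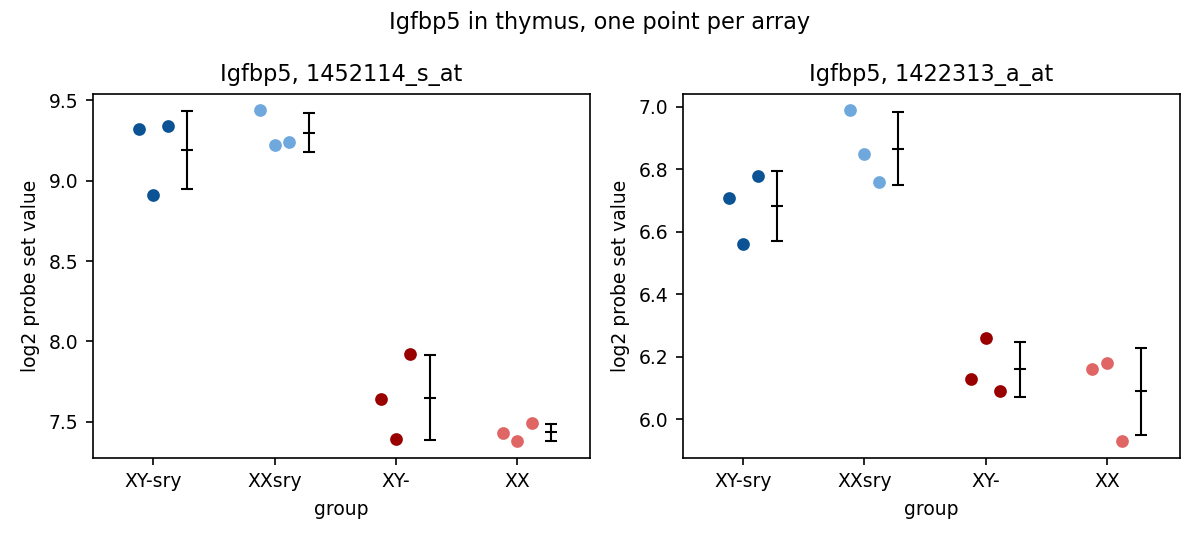
Log2 intensity of the 2 Igfbp5 probe sets on each array (points) with the group mean ± SD (bars, n = 3), for XY-sry, XXsry, XY- and XX thymi. All 6 males lie above all 6 females in both panels, by 0.99 for 1452114_s_at and by 0.30 for 1422313_a_at.

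The difference did not rest on 1 array. Leaving out XY- replicate 2, the array that stood apart, left male minus female values of 1.64 and 0.68 for the 2 probe sets. Over 20 other ways of fitting the data the values ran from 1.54 to 1.77 for 1452114_s_at and from 0.61 to 0.70 for 1422313_a_at. The low end for 1452114_s_at came from a fit with the actin 3′ to 5′ gap as a covariate, which also gave the lowest value between XY-sry and XY- thymi, 1.22. The gap itself did not overlap between the XY-sry and XY- arrays, so that fit cannot separate it from their difference.

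Sex chromosome complement left no detectable difference in Igfbp5. XY- carriers minus XX carriers gave 0.05 for 1452114_s_at (95% interval -0.16 to 0.26) and -0.06 for 1422313_a_at (-0.19 to 0.08), both with an adjusted p of 0.998 by limma. Between females, XY- minus XX was 0.22 (-0.08 to 0.51, adjusted p = 0.611) and 0.07 (adjusted p = 0.813). Between males, XY-sry minus XXsry was -0.11 (-0.41 to 0.19, adjusted p = 0.933) and -0.18 (-0.38 to 0.01, adjusted p = 0.613). Of these complement intervals, the one that reached farthest from zero ended at 0.51. The male minus female difference was smaller on XY- than on XX by 0.33 for 1452114_s_at (interaction -0.33, interval -0.75 to 0.09, adjusted p = 0.507) and by 0.25 for 1422313_a_at (interaction -0.25, interval -0.53 to 0.02, adjusted p = 0.41). Neither interaction passed the test, so a dependence on the complement was not detectable with 3 samples a group.

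Igfbp5 is set aside from the counts that follow, since it was chosen for this contrast. None of the 16 tested probe sets of the other members passed an adjusted p of 0.05 in limma's test for males minus females, against 6.56% of all 17925 probe sets. None passed between XY-sry and XY- thymi either, against 8.64% of all, nor between XXsry and XX thymi, against 0.742%. At an unadjusted p under 0.05 the counts among those 16 were 0 for males minus females (24.9% of all probe sets), 3 for XY-sry minus XY- (26.1% of all) and 0 for XXsry minus XX (12.1% of all). Their male minus female differences ran from -0.15 to 0.14 with a median of 0.01, beside a median of 0.02 over all probe sets, and every 95% interval stayed within 0.35 of zero.

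**Figure D2:**
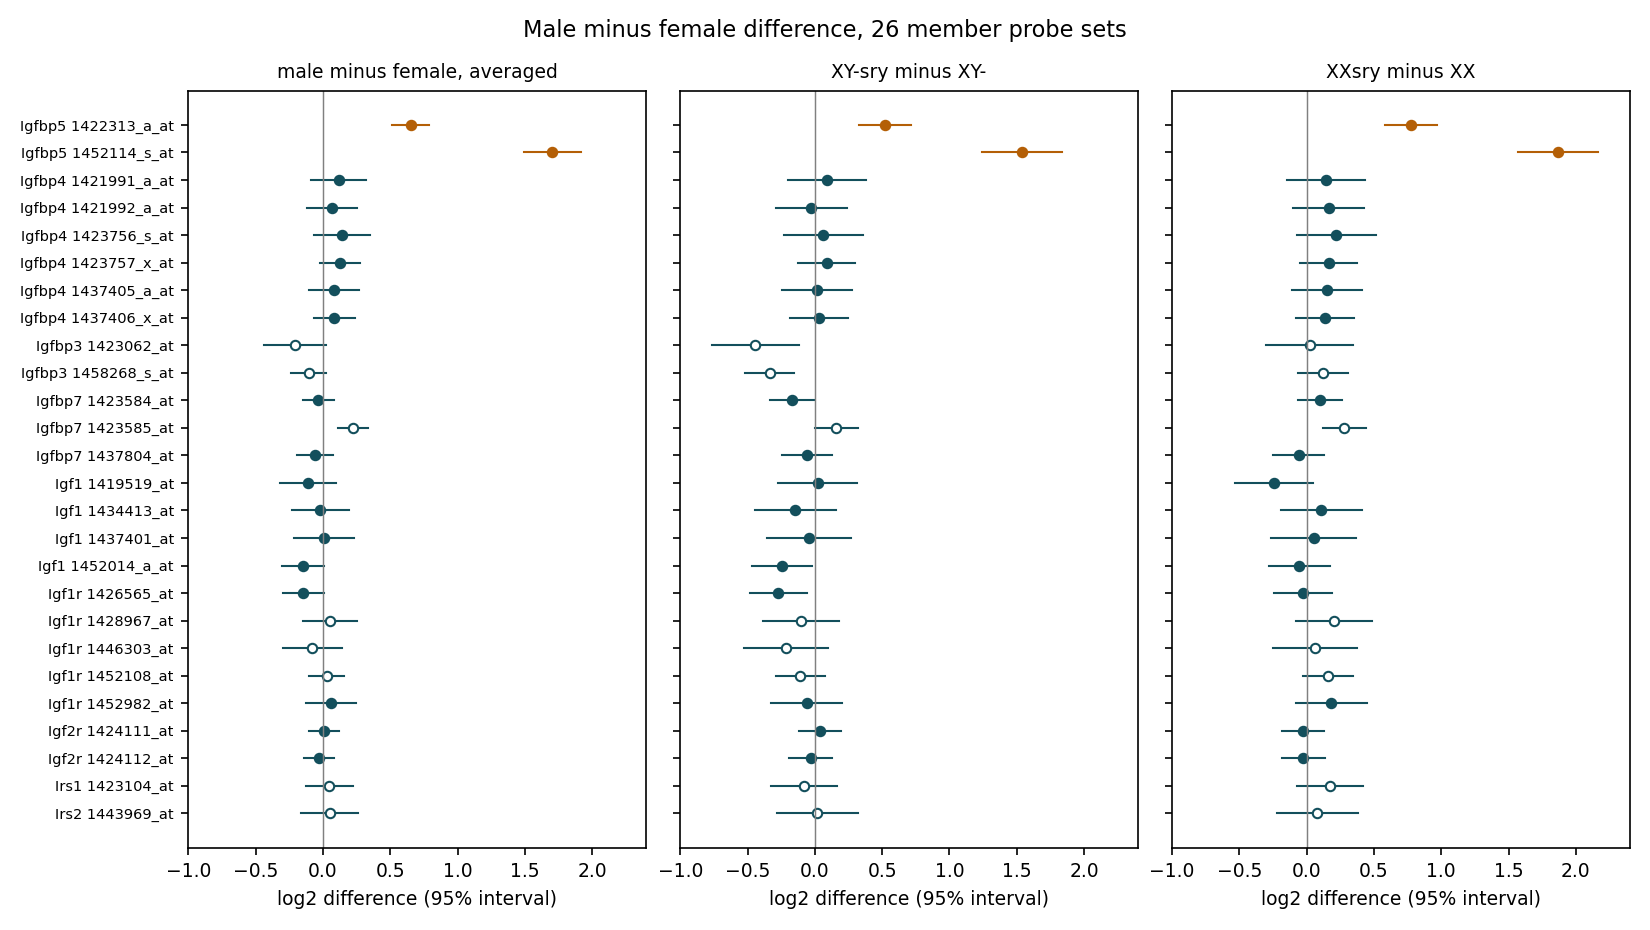
Male minus female difference (log2) of each member probe set with its 95% interval, averaged (left), for XY-sry minus XY- (middle) and for XXsry minus XX (right). Filled points were tested, open points were below the intensity minimum and come from the fit without it, and orange marks Igfbp5. In the averaged panel Igfbp5 stands at 1.70 and 0.65, and the 16 other tested probe sets lie between -0.15 and 0.14.

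Igfbp4, which binds IGFs and in most cell systems restrains them, was read by 6 probe sets. Its brightest, 1437405_a_at, read 8.79, 8.77 and 8.59 in XY-sry thymi and 8.83, 8.79 and 8.66 in XXsry thymi, against 8.61, 8.46 and 9.03 in XY- thymi and 8.68, 8.56 and 8.59 in XX thymi. Males and females overlapped, and the XY- arrays held both the highest and the lowest value. The 6 male minus female differences were all between 0.07 and 0.14, and none passed. For 1423756_s_at XY- replicate 3 read 8.34, above the 8.11 of the highest male. Without that array its difference was 0.23 with a limma adjusted p of 0.0472. It was the only Igfbp4 probe set to pass without that array. The share of all probe sets that then passed is not given here. Deviations from group means were shared unevenly among the 6 probe sets, with a median correlation of deviations of 0.81 over 15 pairs and a range from 0.26 to 0.98.

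Igfbp7, a relative that binds IGFs weakly and is abundant in blood vessels, had 2 tested probe sets with male minus female differences of -0.04 and -0.06 (adjusted p = 0.731 and 0.584). 1423584_at read 7.60, 7.40 and 7.50 in XY-sry thymi and 7.60, 7.48 and 7.52 in XXsry thymi, against 7.58, 7.72 and 7.70 in XY- thymi and 7.55, 7.31 and 7.45 in XX thymi. Males and females overlapped, and the XY- females were the highest group. The dimmest probe set, 1423585_at, read 3.14 to 3.41 in males and 3.04 to 3.16 in females, a difference of 0.22 that did not pass in the fit without the minimum (adjusted p = 0.0552).

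Igfbp3, the main IGF carrier of the blood, was dim in the thymus on both of its probe sets. 1458268_s_at read 4.05, 4.21 and 4.09 in XY-sry thymi and 4.18, 4.21 and 4.19 in XXsry thymi, against 4.28, 4.48 and 4.60 in XY- thymi and 4.16, 4.07 and 3.98 in XX thymi. The 3 XY- females were above every other array. 1423062_at read 3.96, 3.68 and 3.47 in XY-sry thymi and 3.47, 3.65 and 3.81 in XXsry thymi, against 4.30, 3.80 and 4.34 in XY- thymi and 3.51, 3.67 and 3.68 in XX thymi. On this probe set too the XY- females were the highest group, although XY- replicate 2 overlapped the males. Males minus females gave -0.11 and -0.21 (adjusted p = 0.446 and 0.382 in the fit without the minimum). XY-sry minus XY- gave -0.34 (adjusted p = 0.0547) and -0.44 (adjusted p = 0.149), so neither passed.

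Igf1, the ligand, had 4 tested probe sets with male minus female differences from -0.15 to 0.00, none of which passed. 1452014_a_at read 7.23, 7.13 and 7.37 in XY-sry thymi and 7.48, 7.27 and 7.43 in XXsry thymi, against 7.49, 7.29 and 7.68 in XY- thymi and 7.56, 7.34 and 7.44 in XX thymi. The XY-sry thymi tended to the low end and all groups overlapped. The difference was -0.15 over all samples (adjusted p = 0.228) and -0.24 between XY-sry and XY- thymi (unadjusted p = 0.035, adjusted p = 0.157). With array weights these became -0.17 (adjusted p = 0.038) and -0.26 (adjusted p = 0.0248), which changes the call. With the actin gap as a covariate another Igf1 probe set, 1419519_at, gave a male minus female difference of -0.31 (adjusted p = 0.0496), against -0.11 without it (adjusted p = 0.503).

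Igf1r, the signalling receptor, had 2 tested probe sets that did not move alike. 1452982_at read 7.26, 7.14 and 7.64 in XY-sry thymi and 7.64, 7.64 and 7.66 in XXsry thymi, against 7.39, 7.28 and 7.55 in XY- thymi and 7.55, 7.56 and 7.28 in XX thymi. The XXsry arrays were tightly grouped at the top and the XY-sry arrays were spread over nearly the whole range. 1426565_at read 5.08, 5.16 and 5.24 in XY-sry thymi and 5.39, 5.39 and 5.43 in XXsry thymi, against 5.30, 5.62 and 5.37 in XY- thymi and 5.58, 5.49 and 5.22 in XX thymi. Here the XY-sry males were below all XY- females and below all XXsry males. The male minus female differences were 0.06 and -0.15 (adjusted p = 0.705 and 0.212), and XY-sry minus XY- for 1426565_at was -0.27 (unadjusted p = 0.0182, adjusted p = 0.11), the smallest adjusted p among the 16 in that comparison.

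Igf2r, the uptake receptor for IGF-II, had male minus female differences of 0.01 and -0.03 on its 2 probe sets (adjusted p = 0.955 and 0.783). 1424112_at read 7.21, 7.22 and 7.13 in XY-sry thymi and 7.17, 7.00 and 7.14 in XXsry thymi, against 7.13, 7.29 and 7.23 in XY- thymi and 7.19, 6.99 and 7.21 in XX thymi. All groups overlapped.

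The adaptors were dim. Irs1 (1423104_at) read 4.76, 4.78 and 4.69 in XY-sry thymi and 5.10, 4.59 and 4.77 in XXsry thymi, against 4.80, 4.68 and 4.99 in XY- thymi and 4.57, 4.71 and 4.66 in XX thymi. Irs2 (1443969_at) read 4.00, 3.98 and 4.06 in XY-sry thymi and 3.86, 3.96 and 3.96 in XXsry thymi, against 4.08, 4.33 and 3.58 in XY- thymi and 3.74, 3.90 and 3.90 in XX thymi. Males and females overlapped for both genes.

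**Figure D3:**
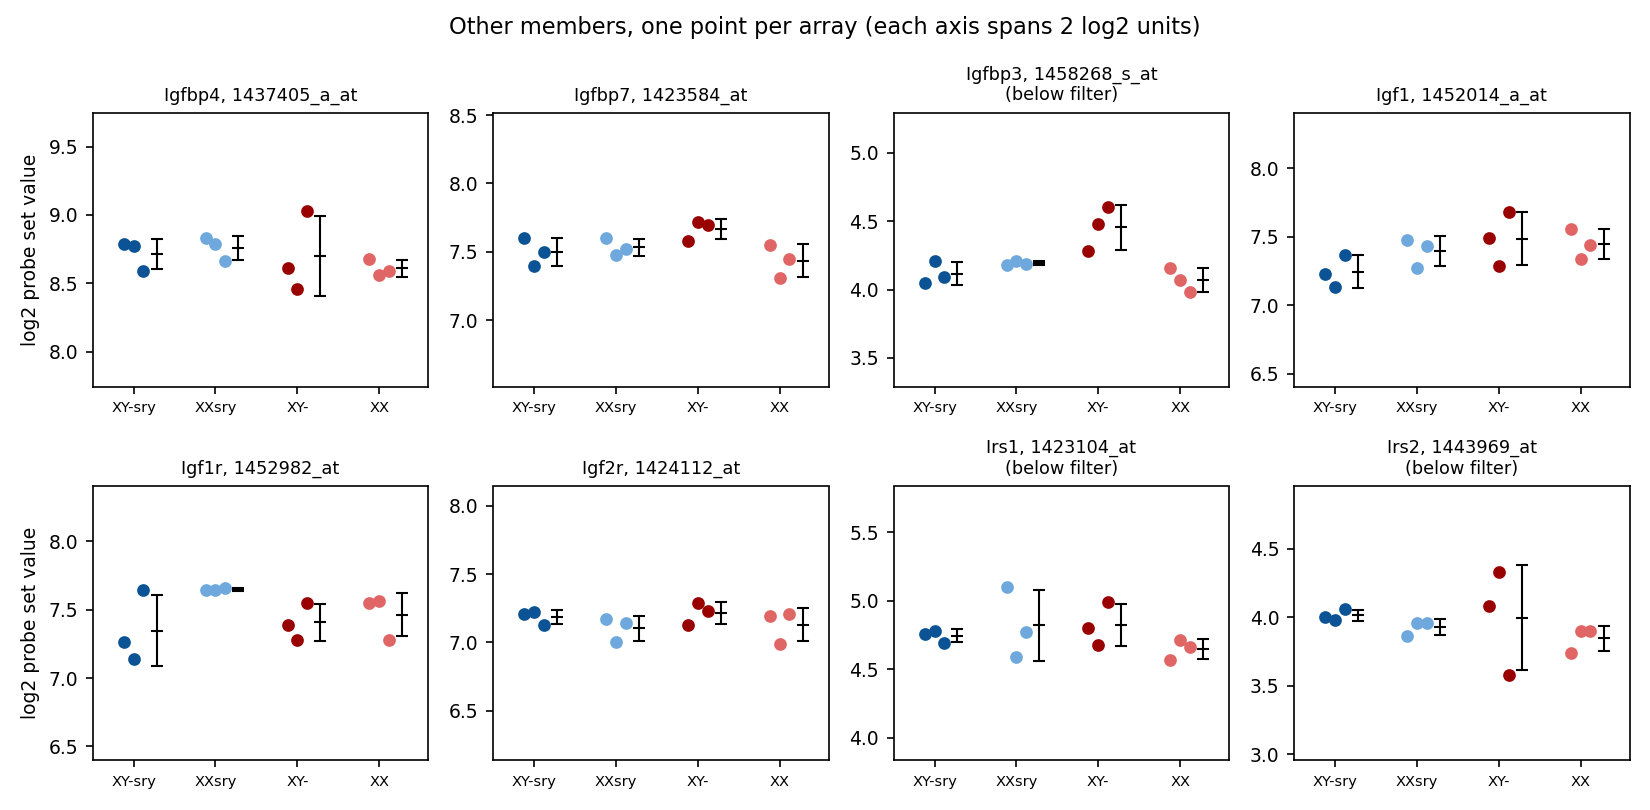
Log2 intensity on each array (points) with the group mean ± SD (bars, n = 3) for the brightest probe set of each of the 8 other members, in XY-sry, XXsry, XY- and XX thymi. Each axis spans 2 log2 units. Males and females overlap in every panel, and the 3 XY- females are the highest arrays for Igfbp3.

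With Igfbp5 set aside, males and females had no overlap of arrays for 0 of the 16 other tested probe sets, against 3.49% of all. Between XY-sry and XY- thymi the count was 1 of 16 (Igf1r 1426565_at, lower), against 27.4% of all. Between XXsry and XX thymi it was 4 of 16, against 21.3% of all. Igfbp4 1423757_x_at and 1437406_x_at and Igf1r 1452982_at were higher, and Igf1 1419519_at was lower. None of the 3 counts stood clearly above its background. Both Igfbp5 probe sets had no overlap in all 3 comparisons, which is a description only, since the gene was chosen for this difference.

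No member passed limma's test for sex chromosome complement. The share of all probe sets that passed was 0.0893% for XY- carriers minus XX carriers, 0.0781% for XY- minus XX females and 0.128% for XY-sry minus XXsry males. At an unadjusted p under 0.05 there were 0 of the 18 over all samples (4.25% of all probe sets), 1 between females (10.6%) and 2 between males (8.55%). The 1 between females was Igfbp7 1423584_at, at 0.23 (unadjusted p = 0.00969, adjusted p = 0.324), and every XY- female was above every XX female. The 2 between males were Igf1r, at -0.24 for 1426565_at and -0.30 for 1452982_at (adjusted p = 0.5 and 0.49). Arrays of XY- and XX carriers overlapped for all 18, against 0.167% of all probe sets with no overlap. Between females 2 of 18 did not overlap (Igfbp4 1421992_a_at and Igfbp7 1423584_at, both higher in XY-), against 13.4% of all, and between males 1 of 18 did not (Igf1r 1426565_at, lower in XY-sry), against 14.2%.

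Igfbp3 had the largest differences of any member between XY- and XX females, although it was too dim to be tested with the rest. XY- minus XX females gave 0.38 ± 0.085 (SE) for 1458268_s_at and 0.53 ± 0.15 for 1423062_at, with no overlap on either probe set. In the fit without the minimum the adjusted p values were 0.288 and 0.396, so neither passed. Between males the differences were -0.08 and 0.06 (adjusted p = 0.955 and 0.983).

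**Figure D4:**
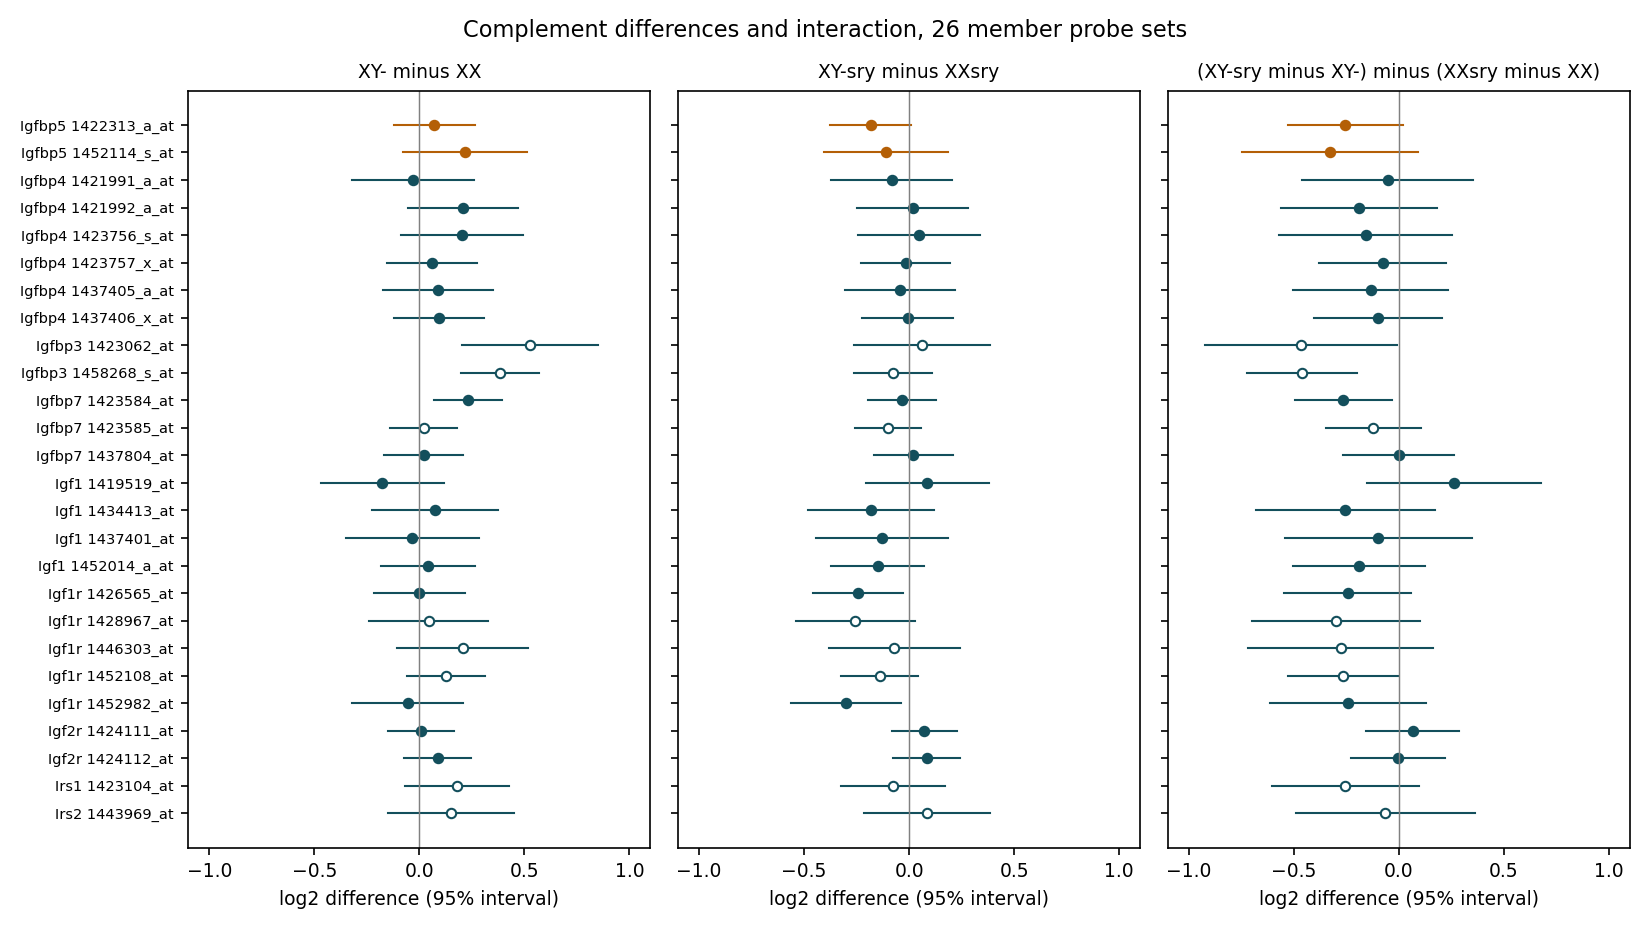
XY- minus XX females (left), XY-sry minus XXsry males (middle) and the interaction (right), as log2 differences with 95% intervals, for each member probe set. Filled points were tested, open points were below the intensity minimum, and orange marks Igfbp5. In the left panel Igfbp3 lies highest, at 0.53 and 0.38, and no tested member passed in any panel.

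The interaction asks whether the male minus female difference depends on the complement, and no member passed it, against 1.29% of all probe sets. At an unadjusted p under 0.05 there was 1 of 18, against 13.4% of all, and it was Igfbp7 1423584_at at -0.26 (adjusted p = 0.293). Of the dim probe sets, Igfbp3 gave -0.46 for 1458268_s_at (adjusted p = 0.145) and -0.47 for 1423062_at (adjusted p = 0.512). The median over the 16 tested probe sets of the other members was -0.12, beside 0.04 over all probe sets.

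The wider IGF and insulin pathway was read through a list of 62 genes, of which 58 were on the array and 39, with 81 probe sets, were tested. With the 2 probe sets of Igfbp5 set aside, 79 remained. Males minus females gave 1 of 79 higher and 0 lower, which is 1.27% against 6.56% of all. The 1 higher was of Grb10, an adaptor that restrains insulin and IGF receptor signalling. It cleared the intensity minimum only through the males, so its place in these counts is a description and no support. At an unadjusted p under 0.05 by limma there were 20 of 79, against 24.9% of all. XXsry minus XX gave 0 by limma, against 0.742% of all, with 9 of 79 at an unadjusted p under 0.05, against 12.1% of all. XY-sry minus XY- gave 1 higher and 6 lower, 8.86% against 8.64% of all, a share near the background. The 1 higher was again of Grb10, and 19 of 79 had an unadjusted p under 0.05, against 26.1% of all. Ligands, receptors and the listed proteases and protease inhibitors had no probe set past the threshold in these 3 comparisons.

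Grb10 (1425458_a_at) read 5.44, 5.30 and 5.48 in XY-sry thymi and 5.49, 5.15 and 5.17 in XXsry thymi, against 4.75, 5.08 and 5.06 in XY- thymi and 4.81, 4.88 and 5.11 in XX thymi. All 6 males lay above all 6 females. Its mean over the 12 arrays was 5.14, with female group means of 4.96 (XY-) and 4.93 (XX). It thus cleared the minimum of 5 only through the males, and its adjusted p values are given as a description. The other Grb10 probe sets, 1425457_a_at and 1430164_a_at, were dim, with means of 2.78 and 2.89, and males and females overlapped on both. The difference was 0.39 ± 0.082 (SE, 1.31-fold, adjusted p = 0.0203), with 0.44 between XY-sry and XY- thymi (adjusted p = 0.0381) and 0.34 between XXsry and XX thymi (adjusted p = 0.262). Without XX replicate 1 or without XY-sry replicate 3 the overall difference no longer passed (adjusted p = 0.0515 and 0.0529, difference 0.36 and 0.37). For XY-sry minus XY- the adjusted p was under 0.05 in 12 of 20 alternatives. That p was above 0.05 without the intensity minimum (0.0645), with the actin gap as a covariate (0.16) and with only those groups fitted (0.0852). The same was so without XX replicate 2, XXsry replicate 3, XY- replicate 1 or XY-sry replicate 1 or 3 (adjusted p from 0.0503 to 0.127).

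The 6 lower probe sets in XY-sry thymi belonged to 4 intracellular genes. Pdpk1, the kinase that activates Akt, read 4.95, 6.35 and 5.10 on 1416501_at in XY-sry thymi, against 7.35, 7.68 and 7.14 in XY- thymi, and it read 6.93, 7.05 and 6.92 in XXsry thymi, against 6.55, 6.55 and 6.39 in XX thymi. It fell by 1.92 in XY-sry against XY- (adjusted p = 0.00439), while XXsry minus XX was 0.47 (adjusted p = 0.542) and the interaction was -2.39 (adjusted p = 0.0246). The other tested Pdpk1 probe set, 1415729_at, gave 0.11 for XY-sry minus XY- (adjusted p = 0.342), so the probe sets disagreed.

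Gsk3b, a kinase that Akt inhibits, was lower in XY-sry than in XY- thymi on 3 of its 5 tested probe sets. On 1439949_at it read 5.51, 6.03 and 5.94 in XY-sry thymi, against 6.87, 7.27 and 6.57 in XY- thymi, and 6.51, 6.64 and 6.54 in XXsry thymi, against 6.44, 6.45 and 5.86 in XX thymi. The XY-sry arrays were all below the XY- arrays. The differences were -1.82, -1.08 and -0.72 for 1437001_at, 1439949_at and 1451020_at (adjusted p = 0.014, 0.00942 and 0.0159), and the other 2 tested probe sets gave -0.04 and 0.10. The interaction passed for 1439949_at at -1.39 (adjusted p = 0.0379) and for 1451020_at at -1.04 (adjusted p = 0.0425). Together with Pdpk1 these were the only 3 of 79 probe sets to pass the interaction, 3.8% against 1.29% of all.

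Pik3r1, the regulatory subunit of phosphoinositide 3-kinase, fell by 0.79 on 1425514_at in XY-sry against XY- thymi (adjusted p = 0.0105), while its 3 other tested probe sets gave 0.08, 0.12 and -0.29 and did not pass. Stat5b, a transcription factor downstream of the growth hormone receptor, fell by 0.31 on 1422102_a_at (adjusted p = 0.0301), and its other probe set gave 0.04 (adjusted p = 0.767). XY- replicate 2, the array that stood apart, was the highest of the 12 for Pdpk1, for these Pik3r1 and Stat5b probe sets and for the 3 Gsk3b probe sets. Without that array the XY-sry minus XY- calls of Pdpk1, Pik3r1 and the 3 Gsk3b probe sets held, as did the interactions of Pdpk1 and Gsk3b, while the Stat5b call was lost. With the actin 3′ to 5′ gap in the model none of the 6 passed (adjusted p from 0.0995 to 0.331), and all 6 differences were smaller. Pdpk1 was then at -1.33, the 3 Gsk3b probe sets at -0.67, -0.57 and -0.26, Pik3r1 at -0.41 and Stat5b at -0.20. The interactions were then -1.80 for Pdpk1 and -0.88 and -0.57 for Gsk3b, and none passed (adjusted p from 0.217 to 0.293). With only the XY-sry and XY- arrays fitted none of the 6 passed either (adjusted p from 0.0619 to 0.126). Stat5b passed in 13 of 21 alternatives, and was lost without XY-sry replicate 1 or 3 and without XY- replicate 2 or 3. Gsk3b was lost on 1437001_at and 1451020_at without XY-sry replicate 1, and on 1451020_at without XY-sry replicate 3. The interaction of all 3 probe sets also failed without any 1 of the 3 XX arrays, without XY-sry replicate 1 or 3 and without XXsry replicate 2 or 3. The actin gap was 0.74 to 0.83 on XY-sry arrays and 0.51 to 0.69 on XY- arrays. It did not overlap between these groups, so the fit with that covariate cannot separate RNA quality from XY-sry minus XY-. The part of RNA quality in these values was not tested further.

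In the fit without the intensity minimum, 2 dim probe sets of the list also passed for XY-sry minus XY- and were lower: Ghr 1451501_a_at, of the growth hormone receptor, at -0.59 (adjusted p = 0.0249), and Stc2 1449484_at, an inhibitor of the protease that frees IGF from its binding proteins, at -0.40 (adjusted p = 0.0457). The share of all probe sets that passed in that fit is not given here, so this count cannot be read as particular to the list. Group means in XY-sry and XY- thymi were 4.53 and 4.49 for Stc2 1419503_at and 4.00 and 3.78 for Stc2 1445186_at. The tested Ghr 1417962_s_at had means of 5.19 and 5.31 and did not pass. These 2 groups also differed in the actin gap without overlap. Igf2, Igfals, Igfbp1, Igfbp2, Igfbp6 and Igfbpl1 were below the minimum. By limma no probe set of the list passed for the complement in any of its 3 comparisons, against 0.0893%, 0.0781% and 0.128% of all. Without Igfbp5 the counts of 79 at an unadjusted p under 0.05 were 2 over all samples (4.25% of all probe sets), 8 between females (10.6%) and 9 between males (8.55%).

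**Figure D5:**
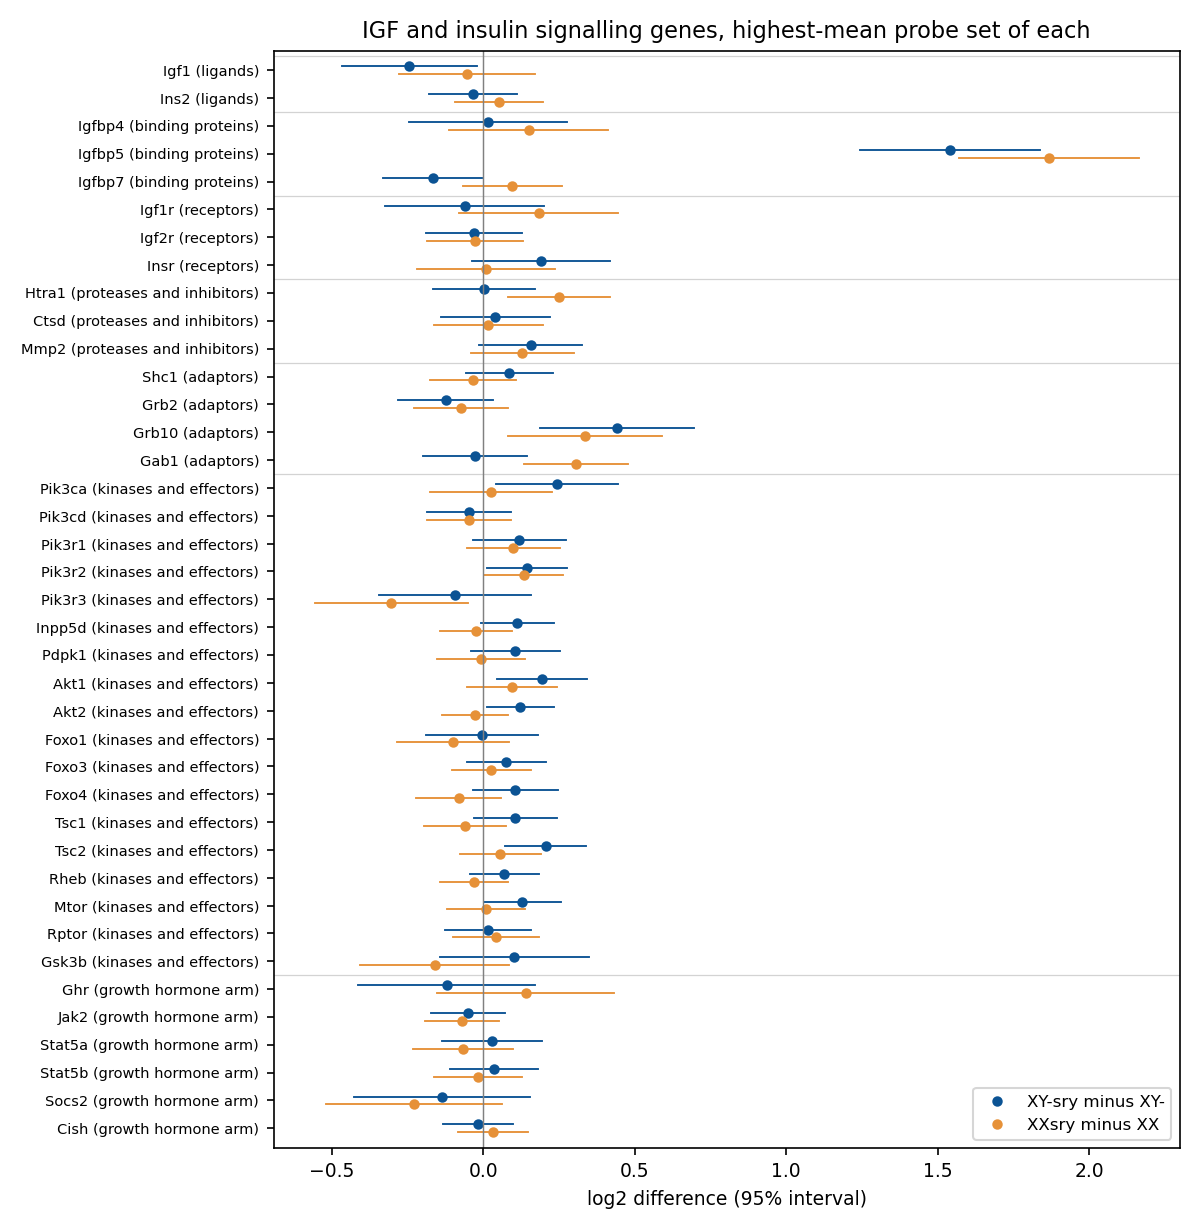
Log2 difference XY-sry minus XY- (blue) and XXsry minus XX (orange) with 95% intervals (bars) for the brightest tested probe set of each of the 39 genes of the wider list. Igfbp5 stands alone at the high end in both, at 1.54 and 1.87. The probe sets of Pdpk1, Gsk3b, Pik3r1 and Stat5b that fell are not the brightest of their genes and so are not drawn.

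The genes whose profiles over the 12 arrays were most like that of Igfbp5 were found by Pearson's r with 1452114_s_at, over 9495 other genes, each by its brightest tested probe set. They were Rbms3 (0.987), Oat (0.979), Kcnk2 (0.978), Sry (0.977), Jag2 (0.974), Nqo1 (0.974), Fgfr2 (0.973), Slc46a2 (0.973), Pltp (0.967) and Nfia (0.967). The most opposite were Cstb (-0.951), Cxcr3 (-0.950), Ttc39a (-0.947), Cd7 (-0.939) and Cxcl10 (-0.931). The 12 arrays fall into males and females, so these values mostly describe genes with a male and female step of the same shape. The list depended on the measure: 2 of the 10 were kept with Spearman's rho, 4 with the second Igfbp5 probe set and 0 with deviations from group means.

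Markers of the cell types a whole thymus holds moved with sex in part, and the counts below stand against 6.56% of all probe sets called for males minus females. Fibroblast markers had 3 of 7 tested genes higher in males, Dcn (0.40), Lum (0.48) and Fn1 (0.64), and Postn lower (-0.49). Their summed level, as the mean of the 7, was 7.20 to 7.45 in males and 7.09 to 7.37 in females, and Col1a1 and Pdgfra were below the minimum. Cortical epithelium had 2 of 9 higher, Cxcl12 (0.21) and Dll4 (0.27), with means of 9.03 to 9.18 in males and 8.91 to 9.04 in females. Medullary epithelium had Krt17 lower (-0.28), 1 of 7, with means of 7.44 to 7.62 in males and 7.53 to 7.86 in females. Thymocyte markers had Rag2 lower (-0.19), 1 of 8, with means of 9.94 to 10.01 in males and 9.96 to 10.10 in females. Of the pericyte and smooth muscle markers Myh11 was higher (0.36), 1 of 4, while Acta2 (-0.27, adjusted p = 0.0512), Tagln (-0.16) and Rgs5 (-0.04) did not pass. Their mean was 7.46 to 7.74 in males and 7.53 to 7.83 in females, and Cspg4 and Des were below the minimum. Both tested markers of the neighbouring parathyroid and thyroid, Pth (1.02) and Chga (0.63), were higher in males, with means of 5.88 to 6.75 in males and 4.95 to 5.90 in females, while Casr and Tg were below the minimum. The part of these cell types in the Igfbp5 difference was not tested.

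Among genes near Igfbp5 on the chromosome, no tested probe set had a male minus female difference as large as either Igfbp5 probe set. Ankar and Rufy4, also near it, had no probe set under their symbols. Igfbp2, its nearest neighbour on 1 side and another binding protein, was below the minimum, with a male minus female difference of 0.12. Tnp1, on the other side, was dimmer still, with 0.07 and -0.05. With means of 4.14 for Igfbp2 and 2.3 and 2.4 for Tnp1, these probe sets are too dim to say whether either gene shares the step. Beyond them, the 3 probe sets of Rpl37a gave -0.06 to -0.01 and did not pass. Tns1, beyond Tnp1, gave 0.32 on 1428650_at (adjusted p = 0.0268) and -0.28 on 1419283_s_at (adjusted p = 0.128).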

How the data were processed

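Mouse thymus RNA was measured on 12 Affymetrix arrays, 3 biological replicates in each of 4 groups. The deposited values are log2 intensities per probe set that the authors normalized with RMA, per the submitters' processing notes. The RMA version and other settings are not given in the sources used here. Arrays have no read depth, so the number of arrays limits the precision.

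Of 45101 rows, 64 control rows were left out. Gene symbols came from the platform's annotation: 34945 of 45037 probe sets had 1 symbol, 932 had several and were not named, and 9160 had none there. The probe set annotated to both Airn and Igf2r was not counted as a member. The 17925 probe sets with a mean log2 of at least 5 were fitted with group means in limma 3.58.1 (R 4.3.3, eBayes, 8 residual degrees of freedom), and p-values were adjusted by Benjamini-Hochberg over all of them, with a threshold of 0.05. Intervals are 95%. On simulated data of 17925 probe sets, 200 of them changed by 0.5, the fit recovered 95.5% for males minus females, 93.5% for the complement, 76% for XXsry minus XX and 48% for the interaction.

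The members, the pathway and marker lists and the rule for named genes were chosen with earlier results of these data known. The rule names all probe sets of the 9 members, each listed pathway gene with a probe set past the threshold, and the 10 most like and 5 most opposite genes. Endothelial, adipocyte, macrophage and dendritic cell, and skeletal muscle marker lists had no gene past the threshold for males minus females. The wider list's alternatives were chosen after seeing the data. Replicate numbers were not taken as pairing samples, since the labels do not say what a number shares. Of 18 same-number pairs, 8 had a correlation of deviations over 0.1. For 8 of 12 arrays the best match in another group carried the same number, so structure shared by number was not excluded. Promoter windows were read from RefSeq sequences, and figures were drawn with matplotlib 3.10.9.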

Additional observations from a re-analysis of the deposited data

Results flagged for a closer look

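Igfbp3 on 1458268_s_at went opposite ways with sex on the 2 complements: every XY-sry array was below every XY- array, and every XXsry array was above every XX array. The difference between the 2 effects was -0.46, and in the fit without the intensity minimum it did not pass (adjusted p = 0.145). The second Igfbp3 probe set gave -0.47 (adjusted p = 0.512), with overlap in both comparisons. On that probe set XXsry minus XX was 0.02. Both probe sets are dim, at means of 4.21 and 3.78.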

How the results depend on the processing

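No result changed direction past the threshold under any alternative run. The counts here include the 2 probe sets of Igfbp5, which was chosen for the male minus female contrast. Among the 18 tested member probe sets, the count past the threshold for XY-sry minus XY- was 1 instead of 2 with the actin 3′ minus 5′ covariate and 1 with only those 2 groups fitted. Leaving out 1 array at a time gave 2 to 3 member probe sets for males minus females (3 without XY- replicate 3), 2 to 2 within XY- and within XX, and 0 to 0 for the complement comparisons and the interaction. Over 1460 member values for complement and interaction under the alternatives, 0 passed, and the smallest adjusted p was 0.0994.

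For the 81 probe sets of the wider list, males minus females gave 3 in the analysis as reported, 5 with each array centred on its median, 22 with limma array weights and 2 to 10 without 1 array (10 without XY- replicate 3, 5 without XY- replicate 2 or XY-sry replicate 2). XY-sry minus XY- gave 9 as reported, 16 with array weights, 1 with the actin covariate, 1 with only the groups compared and 5 to 10 without 1 array (5 without XY-sry replicate 1). XXsry minus XX gave 2 as reported, 6 with array weights, 6 with only the groups compared and 2 to 4 without 1 array (4 without XY- replicate 3). For XY- minus XX females the count of 0 became 6 with array weights and 0 to 1 without 1 array (1 without XY-sry replicate 2). For XY-sry minus XXsry males it became 4 with array weights and 0 to 3 without 1 array (3 without XY- replicate 2, 1 without XY-sry replicate 2). The complement over all samples kept 0 to 0. The interaction gave 3 as reported, 6 with array weights, 0 with the actin covariate and 0 to 5 without 1 array (5 without XY- replicate 2 or 3, 1 without XXsry replicate 1 or XY- replicate 1). The share of all probe sets called under each alternative fit is not given here. Neither the member counts nor the list counts under the alternatives can therefore be read as particular to these genes. The cause of these shifts was not tested.

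With the replicate number as a block, the wider list gave 6 for males minus females and 1 for XY-sry minus XXsry males, and the counts of member probe sets were 2, 2 and 2 for the 3 male minus female comparisons and 0 for the others. The labels give such samples only a number in common. Among arrays of the other groups, 8 of 12 arrays correlated best with 1 of their own number, and the 18 same-number pairs ran from -0.08 to 0.31.

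With 3 samples a group, differences of 0.3 were recovered in 60% of simulated cases for males minus females, 26% for XXsry minus XX and 0% for the interaction, and differences of 0.5 in the interaction in 48%.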
